A study of Mus musculus with 12 samples.

Results

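The cytosolic ribosomal protein genes were examined in the urogenital sinus of fetal mice at stage E18.5. They were taken by name: every gene of the deposited table whose symbol follows the Rpl or Rps pattern of the large and small subunit proteins, with Rpsa added. The pattern gave 89 genes of 56495 in the table, of which 36 were small subunit (Rps and Rpsa) and 53 large subunit (Rpl and Rplp) genes. Each of 4 groups had 3 libraries, 12 in all: females and males that were wild type, and females and males that carried Inv(Itga6-nsi)d11lac and are called mutant. The name stands for a chromosome inverted from Itga6 to a point nsi and for an allele d11lac, neither of which the labels describe further. Total RNA depleted of ribosomal RNA was sequenced from tissue dissected away from the bladder, with the proximal urethra kept in both sexes and the vagina kept in females, per the labels. Whether the 3 libraries of a group are separate embryos is not in the labels, and the p-values therefore reflect library spread that may be technical.

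The cytosolic ribosome has a small subunit, which reads the messenger RNA, and a large subunit, which joins the amino acids. Each ribosome holds nearly all of the proteins once, so their genes are among the most highly transcribed of a growing tissue and tend to be regulated together, both in transcription and, through a run of pyrimidines at the start of the messenger RNA, in translation. Most of these genes have many processed copies elsewhere in the genome, and some have paralogs used in particular tissues.

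Values are FPKM, which are fragments scaled to gene length and library size and so can be compared between genes per length. They were scaled so that the median gene was level across libraries, and fold changes are differences of log2(scaled FPKM + 0.5). Of the 89 genes, 82 passed the filter of at least 1 FPKM in at least 3 libraries, 34 of the small and 48 of the large subunit. The 7 that did not were paralogs or copies with hardly any signal: Rpl10l and Rps12l1 were listed at 0 in all 12 libraries, and Rpl3l, Rpl39l, Rps3a2, Rpl6l and Rpl32l reached at most 0.32 FPKM. A gene is said to be called where the Benjamini-Hochberg adjusted p of limma's two-sided moderated test, over all 13904 genes tested, was under 0.05.

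In relative sequencing depth the wild type libraries ranged from 0.81 to 1 and the mutant libraries from 0.582 to 0.717, so depth and genotype cannot be told apart in any mutant comparison. A single RNA, Rn7sk, held between 12.2% and 14.9% of the summed FPKM of 3 male libraries (wild type 1, mutant 1 and mutant 3) and stood at 0 elsewhere. Xist and Ddx3y fitted the labelled sex of all 12. Hoxd13, a HoxD gene of the urogenital sinus, was at 15.1 to 20.5 scaled FPKM in the wild type and 3.16 to 6.24 in the mutant libraries. The tissue's other defining markers, Upk1b, Upk2, Krt5, Trp63 and Acta2, were above 4 scaled FPKM in every library.

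The promoters of 4 members are shown because the results turn on them: Rps16 and Rpl28 had the largest called rises in the mutant, and Rpl22l1 and Rpl39 were among the few called lower. Each run covers the 70 bases before and the 30 bases from the start site, 5′ to 3′ on the gene's strand, from RefSeq on GRCm38.p6. Capitals mark matches to the motifs searched: the pyrimidine runs CTTTCC and CTCTTT on the sense strand, the ETS-type motif CCGGAAG on both strands, and the TATA box TATAAA on the sense strand, where CTCTTT and CTTTCC can overlap.
Rps16, chr7:28350619-28350718, plus strand: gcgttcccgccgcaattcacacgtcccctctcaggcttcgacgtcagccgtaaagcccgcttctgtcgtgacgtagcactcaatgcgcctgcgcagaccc
Rpl28, chr7:4792895-4792994, plus strand: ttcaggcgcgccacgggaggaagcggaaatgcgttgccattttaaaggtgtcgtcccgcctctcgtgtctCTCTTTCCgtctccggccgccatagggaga
Rpl39, chrX:37085193-37085292, minus strand: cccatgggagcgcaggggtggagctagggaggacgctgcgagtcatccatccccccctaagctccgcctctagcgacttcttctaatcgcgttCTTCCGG
Rpl22l1, chr3:28805438-28805537, plus strand: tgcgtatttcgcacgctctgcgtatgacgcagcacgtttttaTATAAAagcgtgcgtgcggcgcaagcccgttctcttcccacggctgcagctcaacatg

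Of the members, 64 had a promoter in the RefSeq table. A member or symbol was counted if the window of any of its listed starts held the motif, so more listed starts give more windows. The windows printed above are those of the first listed start. CTTTCC was found in 23.4% of these members against 5.49% of all 27025 symbols in the table. CTCTTT was in 21.9% against 4.73%, and CCGGAAG in 25.0% against 6.27%. TATAAA was in 6.25% against 4.33%. In Rpl28 the overlapping pyrimidine runs lie just after the annotated start, while the Rps16 window holds none of the motifs. These matches are descriptions of letters in a window and not of bound sites.

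The members made up a large share of the summed FPKM, a per-length measure over all genes of the table and not messenger RNA alone. Without Rn7sk they held 12.6% ± 0.42 of the FPKM sum in wild type females, 11.6% ± 0.54 in wild type males, 13.0% ± 0.36 in mutant females and 12.2% ± 0.91 in mutant males (SD, n = 3 each). Mean levels of the tested members ran from 29.0 to 1443 scaled FPKM, with a median of 509 in the small and 427 in the large subunit, and 77 of 82 were at or above 100. The highest were Rplp1 (1443) and Rplp0 (1161), which form the stalk that recruits elongation factors, and among the next were Rps12 (1067) and Rps27 (1031) of the small subunit. The lowest were Rps4l (29.0), Rpl7l1 (34.3), Rps27l (62.4) and Rpl22l1 (94.8), all paralogs of a core member, and Rpl35 (95.4). Rps16 came next, with a mean of 112 scaled FPKM, which made it the 6th lowest of 82 and the lowest core protein of the small subunit.

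The libraries of a group did not stand level. In scaled FPKM, the summed members were 41505, 42076 and 44979 in wild type females 1 to 3, and 34272, 34237 and 42358 in wild type males 1 to 3. They were 54628, 48612 and 53464 in mutant females 1 to 3, and 39671, 42350 and 35134 in mutant males 1 to 3. Mutant females were therefore above every other library on this scale. As a share of the FPKM sum without Rn7sk this did not hold. Wild type female 3, at 13.1%, was then above mutant females 2 and 3, at 12.7% and 13.0%. In scaled FPKM, wild type male 3 stood with the wild type females rather than with the other wild type males. That library was the highest of its group for 77 of 82 members, as was wild type female 3 for 71 and mutant male 2 for 70, while mutant male 3 was the lowest of its group for 73 and mutant female 2 for 71. The ratio of the summed large to the summed small subunit was 1.24 ± 0.018 in wild type females, 1.23 ± 0.0029 in wild type males, 1.26 ± 0.021 in mutant females and 1.28 ± 0.0086 in mutant males (SD, n = 3 each). The subunits therefore moved nearly together between libraries. Within this small range the male libraries did not overlap, at 1.227 to 1.233 in wild types and 1.272 to 1.287 in mutants. The female libraries overlapped, at 1.217 to 1.254 and 1.238 to 1.279. These ratios were not tested.

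**Figure D1:**
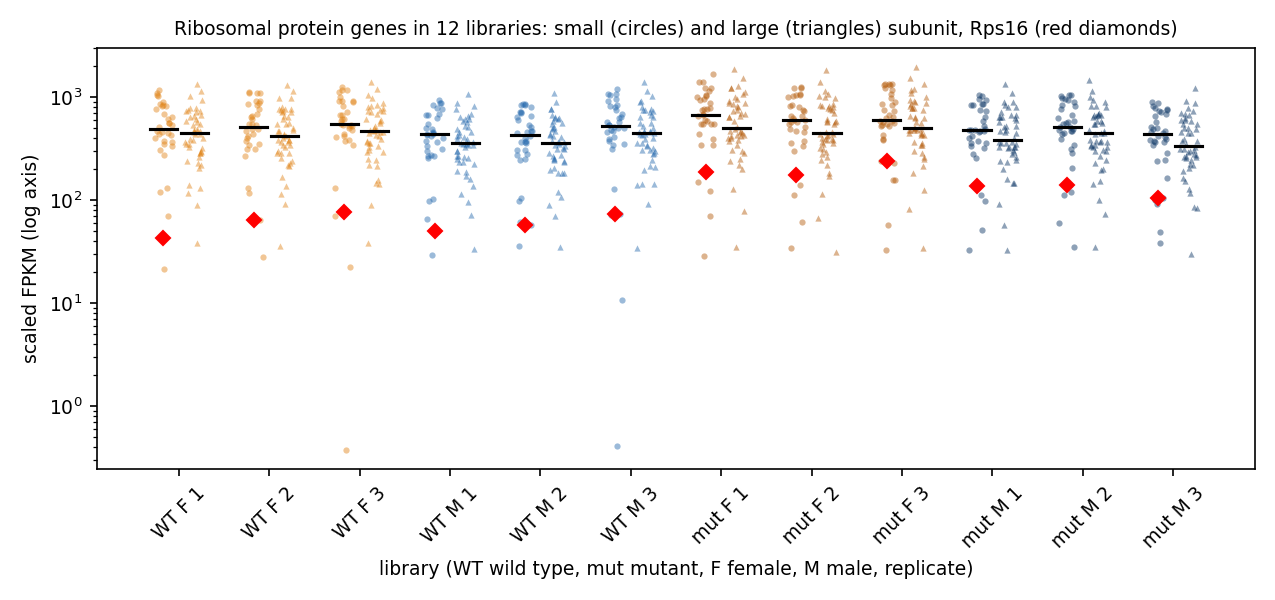
Scaled FPKM (log axis) of the 82 tested members in each of the 12 libraries, small subunit as circles, large subunit as triangles, medians as black bars, and Rps16 as red diamonds. Rps16 sits at 42.7 to 76.3 in the 6 wild type libraries and at 105 to 237 in the 6 mutant libraries, always under the medians, and the points at the foot of wild type female 3 and wild type male 3 are Rps3a3.

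The first question is whether Rps16 stands apart. Rps16, whose protein reaches with its tail to the transfer RNA in the decoding centre, lies at chr7:28050077-28052580 (mm39). It had scaled FPKM of 42.7, 63.8 and 76.3 in wild type females and at 49.5, 57.4 and 72.8 in wild type males. It was at 187, 175 and 237 in mutant females and at 137, 139.5 and 105 in mutant males. Every mutant library was above every wild type library, as in 6.8% of all genes tested, and mutant males were below mutant females. The group means were 60.9 ± 17.0 and 59.9 ± 11.8 in wild type females and males and 199.6 ± 33.2 and 127 ± 19.3 in mutant females and males (SD, n = 3 each).

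Rps16 rose in the mutant by 1.09 on the log2 scale in males (SE 0.21, limma adjusted p = 0.00692), by 1.73 in females (adjusted p = 0.000647) and by 1.41 over both sexes (adjusted p = 9.56e-05). The median of the other 81 tested members was 0.16 over both sexes, 0.27 in females and 0.05 in males. In each of the 3 comparisons only Rps3a3, a copy gene whose values are described below and which was not called, had a larger fold change among the 82. Rps16 was therefore the largest called rise of the members, and Rpl28 was the next. Set as a percentage of the median of the other members in the same library, which does not depend on the scaling, Rps16 was at 9.24 to 15.6 in the 6 wild type libraries and at 27.1 to 41.4 in the 6 mutant libraries. The rise remained called under all 24 alternatives in each comparison, with the largest adjusted p of 0.0359 in males when wild type male 1 was left out. Between the sexes, Rps16 differed by 0.00 in wild types and by -0.65 (male minus female, adjusted p = 0.0914) in mutants.

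The annotated near-identical copies of Rps16 were listed at low values, but how reads that match both were counted is not given. The values of the copies therefore cannot show whether reads of Rps16 were shared or dropped. Of 2 annotated copies, neither reached more than 1.12 FPKM, and Rps16-ps2, identical over 441 aligned bases, was at 0.0753 to 1.19 scaled FPKM, higher in every mutant library than in any wild type library. After a correction of each library for GC content and transcript length, the rise of Rps16 was 1.01 in males (adjusted p = 0.027), 1.62 in females (adjusted p = 0.00392) and 1.32 over both sexes (adjusted p = 0.000553).

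Rpl28, a large subunit protein, followed Rps16 at a higher level. It had scaled FPKM of 237, 241 and 245 in wild type females, 169, 181 and 215 in wild type males, 507, 438 and 497 in mutant females, and 356, 369 and 299 in mutant males. The mutant and wild type libraries did not overlap. It rose by 0.86 in males (SE 0.11, limma adjusted p = 0.00204), by 0.99 in females (adjusted p = 0.000516) and by 0.93 over both sexes (adjusted p = 4.24e-05), and by 0.76, 0.81 and 0.79 after the GC content and length correction, where it remained called in all 3. It remained called under all 24 alternatives in each comparison.

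Across the 12 libraries, the members whose log2 scaled FPKM ran most like that of Rps16 were Rpl28 (Pearson's r = 0.94), Rps15 (0.93) and Rpl13a (0.91). Among the other genes tested they were Txn2 (0.98), Nudt16l1 (0.98), Bcar1 (0.97), Srsf4 (0.97) and Por (0.96). These are the highest of many correlations over libraries that share their 4 groups and scaling, and they carry no test. The fold change of Txn2, a mitochondrial thioredoxin, was 0.67 in males and 0.89 in females, below that of Rps16 in both.

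**Figure D2:**
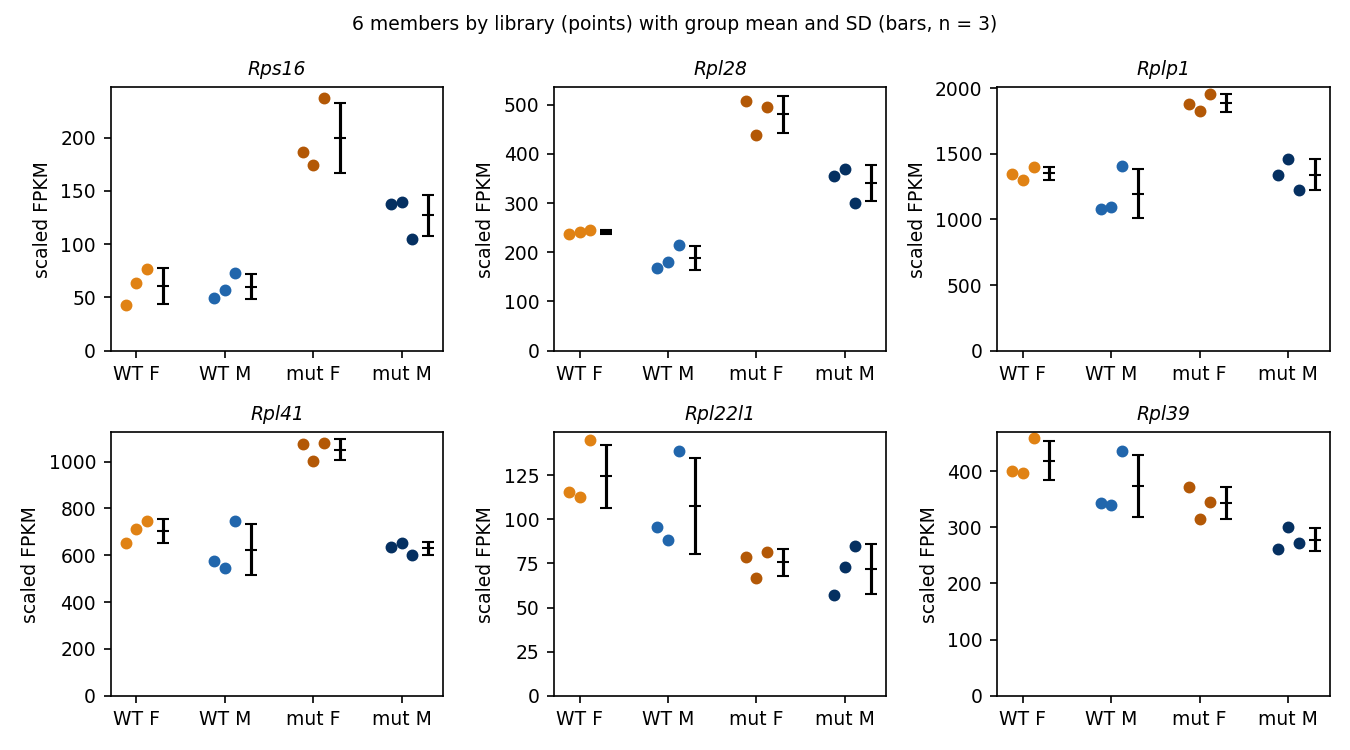
Scaled FPKM of 6 members in each library (points) with the group mean and SD (bars, n = 3), each panel starting at 0. Rps16 and Rpl28 are higher in every mutant than in every wild type library, Rpl22l1 is lower, Rpl41 and Rplp1 are highest in the 3 mutant females, and Rpl39 is lower in mutants of each sex.

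In females the mutant libraries were higher in many members of both subunits. Called higher were 26 of 82 members, against 12.1% of all genes tested, and 1 of 82 was called lower, against 15.9%. By subunit these were 9 higher of 34 in the small, and 17 higher and 1 lower of 48 in the large. The median fold change of the members was 0.27, beside 0.00 for all genes, and 68 of 82 were above 0. Libraries did not overlap in 47 members that were higher and in 4 that were lower, beside 20.4% and 22.2% of all genes.

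Rplp1, the stalk protein, showed the pattern at the highest level, with 1347, 1302 and 1399.8 in wild type (scaled FPKM) and 1878, 1826 and 1957 in mutant females, a rise of 0.48 (SE 0.13, limma adjusted p = 0.0212). Rpl36 of the large subunit was at 284, 283 and 292 in wild type and 582, 437 and 476 in mutant females, a rise of 0.79 (adjusted p = 0.0011). It has the highest GC content of the 82 members (60.8%), and after correction its rise was 0.40 (adjusted p = 0.052). Rps15 was at 822, 847 and 894 in wild type and 1388, 1229.8 and 1328.5 in mutant females and rose by 0.62 (adjusted p = 0.00332). Rps2, at the entry of the messenger RNA channel, and Rps18, in the head of the small subunit, rose by 0.83 (adjusted p = 0.036) and 0.69 (adjusted p = 0.0361). Both varied widely within groups and overlapped between them. Rps2 was at 269.95, 266 and 437 in wild type and 783, 592 and 381 in mutant females, and Rps18 at 398, 414 and 617 against 1007, 733 and 579. Rplp1, Rps15, Rps2 and Rps18 were not called after the correction, with corrected values of 0.23 for Rplp1 (limma adjusted p = 0.292), 0.31 for Rps15 (adjusted p = 0.118), 0.62 for Rps2 (adjusted p = 0.166) and 0.54 for Rps18 (adjusted p = 0.146).

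The rises in females depended on the scaling and on the correction for GC content and length. Without scaling 3 members were called higher, and with libraries scaled to their FPKM sum 5. After the GC content and length correction 6 were called higher, beside 378 of 13735 genes. The 6 included Rps16, Rpl28, Rpl13, Rpl37a and Rps20. Without scaling and scaled to the FPKM sum, the medians of all genes in this comparison were -0.08 and -0.21. Those of the members were 0.17 and 0.03. Leaving out wild type female 1 left 12 called higher, and leaving out wild type female 2 left 14.

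In males fewer members passed. Called higher were 7 of 82, against 8.64% of all genes tested, and 1 of 82 was called lower, against 11.6%. Among them were Rps16, Rpsa and Rps15 of the small and Rpl28, Rpl26 and Rpl13 of the large subunit. The median of the members was 0.05, with 51 of 82 above 0, beside 0.00 for all genes. Libraries did not overlap in 8 members that were higher and 4 that were lower, beside 21.1% and 22.4% of all genes.

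Rpl39, a small protein of the exit tunnel encoded on the X chromosome, was the member called lower in males. It was at 344, 339 and 437 in wild type and 261, 300.4 and 272 in mutant males, a fall of 0.42 on the log2 scale (limma log2 fold change -0.42, adjusted p = 0.0294). In females it was at 399.8, 397 and 459 against 371, 315 and 344, a difference of -0.29 that was not called (adjusted p = 0.0923).

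Single libraries moved the count of members called higher in males. It was 2 without wild type male 1, wild type male 2, mutant male 1 or mutant male 2, and 13 without wild type male 3, the library that stood with the females. After the GC content and length correction Rps16 and Rpl28 were the 2 called, beside 326 higher and 302 lower of 13735 genes. As deposited, where the median of all genes was -0.14, the median of the members was -0.10.

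Over both sexes 26 of 82 members were called higher, against 18.9% of all genes tested, and 4 of 82 lower, against 21.6%. The small subunit had 8 higher and 2 lower of 34, and the large subunit 18 higher and 2 lower of 48. This comparison pools the libraries of the 2 preceding ones and is not independent of them. The median of the members was 0.16. Mutant and wild type libraries did not overlap in 2 members that were higher, Rps16 and Rpl28, and in 1 that was lower, Rpl22l1. Of all genes tested, 6.8% were higher and 10.3% lower without overlap. After the GC content and length correction 19 were called higher and 2 lower, beside 1133 higher and 1044 lower of 13735 genes. The counts of members called higher were 4 as deposited and 8 with libraries scaled to their FPKM sum, where the median was -0.01 for the members and -0.15 for all genes.

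The 4 called lower over both sexes were Rps3a1, Rpl22l1, Rpl39 and Rps27l. Rpl22l1, the paralog of Rpl22, had scaled FPKM of 116, 113 and 145 in wild type females, 95.4, 88.4 and 139 in wild type males, 78.4, 66.8 and 81.6 in mutant females and 56.9, 72.9 and 85.1 in mutant males. Every mutant library was below every wild type library, and the fold change was -0.64 (limma adjusted p = 0.00284). Its transcripts have the lowest GC content of the 82 members (39.0%), and after the correction for GC content and length its fold change was -0.02 (adjusted p = 0.936). Rps27l, a paralog of Rps27 induced by p53, had a fold change of -0.21 (adjusted p = 0.0356), which turned to 0.21 (adjusted p = 0.0544) after the correction. Rpl39 kept a called fold change, at -0.35 (adjusted p = 0.00638) before and -0.28 (adjusted p = 0.0229) after. Of the other paralogs tested, Rps4l had 0.52 (adjusted p = 0.0943) and Rpl7l1 -0.11 (adjusted p = 0.103).

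Fold changes of the members followed the GC content of their transcripts. Across the 82 members, Pearson's r of the mutant fold change with GC content was 0.27 (males), 0.44 (females) and 0.36 (both sexes), and Spearman's rho 0.57, 0.73 and 0.68. Over 13735 genes with a GC value, r was 0.53, 0.61 and 0.64. These run across genes of the same libraries, so they carry no p. The median GC content of the members was 51.9%, beside 50.9% for all genes, and their median transcript length was 634.5 bases, beside 1429. After the correction r was -0.07, -0.01 and -0.04 across the members, and their median fold change was 0.14 over both sexes, 0.21 in females and 0.05 in males. The same correction took the calls over all genes in females from 1687 higher and 2208 lower to 378 and 317.

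**Figure D3:**
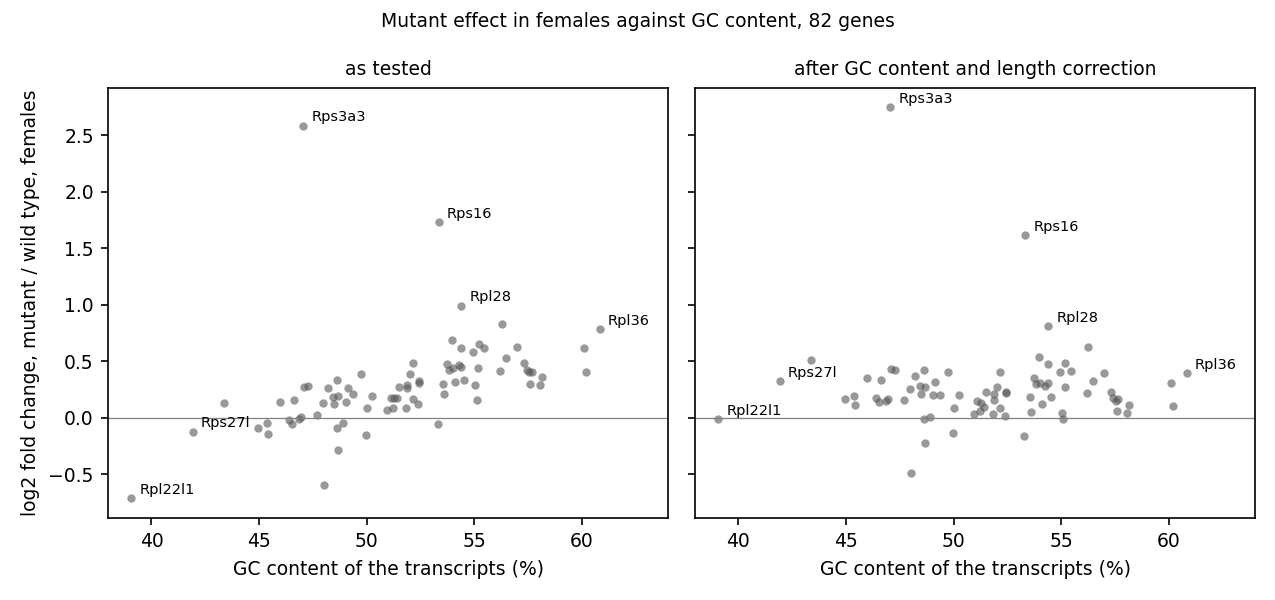
Log2 fold change of mutant against wild type females for the 82 members against the GC content of their transcripts (%), as tested on the left and after correction for GC content and length on the right. Rpl22l1 moves from -0.71 to -0.01 and Rpl36 from 0.79 to 0.40, while Rps16 moves from 1.73 to 1.62 and Rpl28 from 0.99 to 0.81.

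The mutant difference was larger in females than in males for most members, but for none of them past the threshold. Of 82 members, 73 had a larger fold change in females, with a median difference of 0.20 beside -0.01 for all genes. No member was called by limma, against 0% of all 13904 genes. At an unadjusted p under 0.05 there were 3 members (3.66%), beside 1225 of all genes (8.81%). These 3 were Rpl41 (0.55), Rps18 (0.76) and Rpl36 (0.45), each with an adjusted p of 0.545. The difference for Rps16 was 0.64 (SE 0.30, adjusted p = 0.571), so its larger rise in females was not shown to differ from that in males. With libraries scaled to their FPKM sum, the median difference was 0.06 for the members and -0.13 for all genes.

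**Figure D4:**
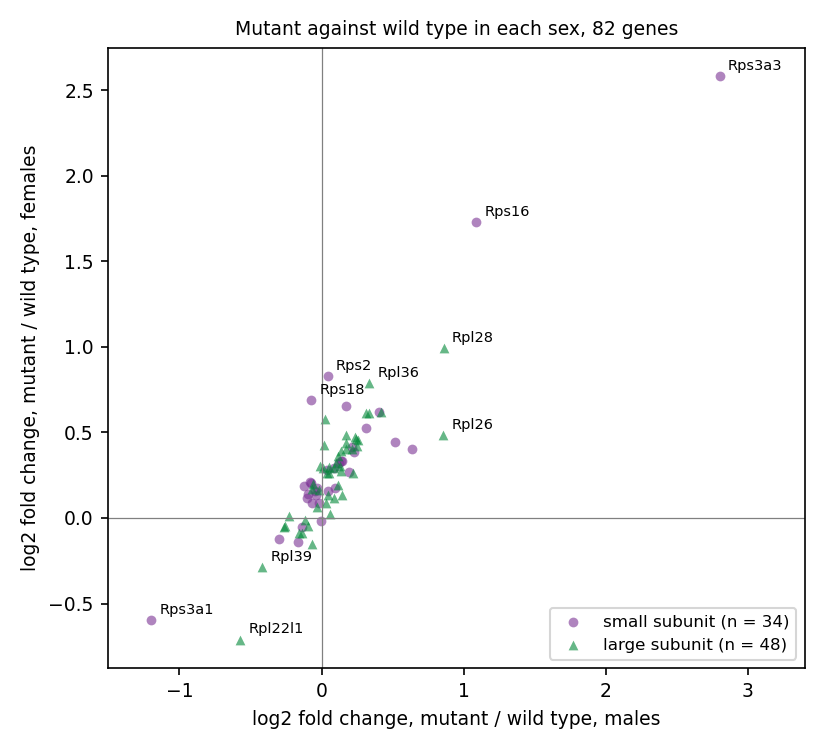
Log2 fold change of mutant against wild type in females (y axis) against that in males (x axis) for the 82 tested members, with small subunit genes as circles and large subunit genes as triangles. Rps16 lies at 1.09 and 1.73 and Rpl28 at 0.86 and 0.99, apart from a dense group around the medians of 0.05 and 0.27. Rps3a3 and Rps3a1 lie at opposite ends of the x axis.

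In mutants, males were lower than females in nearly all members of both subunits. Called lower were 37 of 82 members, against 3.52% of all genes tested, and 0 were called higher by limma, against 3.98%. The 37 were 13 of 34 in the small and 24 of 48 in the large subunit. The median difference, male minus female, was -0.42, beside 0.02 for all genes, and 79 of 82 members were below 0. Libraries of the sexes did not overlap in 69 members, all lower in males, beside 11.6% of all genes. At an unadjusted p under 0.05, 69 members were lower and 0 higher, beside 24.8% of all genes in both directions together. Bulk tissue cannot tell fewer cells rich in these messenger RNAs from less of them per cell, and the female samples also held the vagina.

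Rpl41, the shortest ribosomal protein, stood in mutant females at 1073, 1001 and 1079.8 scaled FPKM and in mutant males at 636, 652 and 599.9, a difference of -0.74 (SE 0.12, limma adjusted p = 0.00636). Rpl36 differed by -0.63 (adjusted p = 0.00964), Rpl13 by -0.57 (adjusted p = 0.00972) and Rpl15 by -0.54 (adjusted p = 0.0451). Rps14, a protein of the small subunit platform, differed by -0.60 (adjusted p = 0.0444). Rpl41, Rpl13, Rpl15 and Rps14 remained called after the GC content and length correction, among 21 members called lower in all. Of 13735 genes, 404 were called lower after it.

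The count in mutants was sensitive to the libraries left out and to the scaling. It was 3 without mutant male 3, which was the lowest of its group, 5 without mutant female 3, 6 without mutant male 1, 10 without mutant male 2 and 13 without mutant female 1. Through the shared estimate of the spread it was also 9, 10 and 11 without wild type female 1, 2 or 3, and 16 and 19 without wild type male 1 or 2, while it was 49 without wild type male 3. It was 0 as deposited and 2 with libraries scaled to their FPKM sum, with member medians of -0.40 and -0.24, and under that last scaling the median of all genes was 0.18.

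In wild types the difference between the sexes ran the same way without passing the test. No member was called by limma, against 1.95% of all genes called higher and 1.23% called lower in males. An unadjusted p under 0.05 was found for 23 of 82 members (28.0%), beside 2541 of all genes (18.3%). The median was -0.23, beside 0.01 for all genes, and 80 of 82 members were below 0, all but Rps2 and Rps18. The smallest p values belonged to Rpl28 (-0.36, adjusted p = 0.114), Rpsa (-0.43, adjusted p = 0.128) and Rpl23a (-0.34, adjusted p = 0.136). Libraries did not overlap in 30 members, all lower in males, beside 14.5% of all genes. Without wild type male 3, 5 members were called lower. The 4 members on the X chromosome, Rpl10, Rpl36a, Rpl39 and Rps4x, had differences of -0.28, -0.17, -0.17 and -0.31 in wild types and of -0.31, -0.42, -0.31 and -0.34 in mutants, within the range of the other members.

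Most members have annotated near-identical copies (at least 97% identity), and their own values are uncertain where reads could match both. Such a copy was found for 65 of the 89 members, 343 copies in all. For 31 members at least 1 copy was expressed, 35 copies in all. Low values of a copy cannot show whether reads of its member were shared or dropped. In 5 members (6 copies) a copy held more than 5% of the member's level: Rps3a1, Rpsa, Rpl26, Rpl15 and Rps26. For Rps3a1 and Rpl26, the gene was higher in the libraries where its copy was nearly absent than in the other libraries of the same group. The copy of Rpsa was nearly absent in wild type female 1 and mutant male 2, where Rpsa was at 445 and 507 scaled FPKM, and in the other wild type females Rpsa was at 402 and 418 beside the copy.

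Rps3a1, a small subunit protein gene, had scaled FPKM of 332, 312 and 532 in wild type females, 255, 250.3 and 503 in wild type males, 338, 301 and 156 in mutant females and 256, 113 and 91.0 in mutant males. Rps3a3, its copy and itself a member by name, was at 129.99, 129.96 and 0.376 in wild type females, 103, 103 and 0.408 in wild type males, 123, 112 and 230.1 in mutant females and 98.2, 203 and 164 in mutant males. Rps3a3 was nearly absent in wild type female 3 and wild type male 3, where Rps3a1 was highest. Rps3a3 had fold changes of 2.80 in males and 2.58 in females that were not called (limma adjusted p = 0.35 and 0.355), and Rps3a1 had a called fold change of -0.90 over both sexes (adjusted p = 0.0332). Summed, the pair differed by -0.29 (adjusted p = 0.0633).

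Rpl26, a protein near the exit tunnel, and its copy Gm15772 showed the pattern of Rps3a1 and Rps3a3, the gene being higher where its copy was nearly absent. Gm15772 was at 166 to 184 scaled FPKM in wild type females, at 129 to 169.7 in wild type males and at 206 and 189 in mutant females 1 and 2. It was at 1.95, 0.691 and 0.786 in mutant female 3, mutant male 2 and mutant male 3, and at 66.0 in mutant male 1. Rpl26 was at 789, 643 and 499 in the 3 libraries where the copy was lowest and at 266 to 472 in the other 9. Its rise in males was 0.85 (limma adjusted p = 0.0319) alone and 0.35 (adjusted p = 0.135) with the copy added. Over both sexes the rise of Rpl26 was 0.67 (limma adjusted p = 0.0103) alone and 0.33 (adjusted p = 0.035) with the copy added.

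Rpsa, the small subunit protein also known as the laminin receptor, had scaled FPKM of 264, 308 and 372 in wild type and 465, 507 and 374 in mutant males. Its copy Rpsa-ps10 was at 272, 136 and 159.6 in those wild type and 93.8, 0.727 and 137 in those mutant libraries. The rise of Rpsa in males was 0.51 (limma adjusted p = 0.0249) alone and 0.07 (adjusted p = 0.756) with the copy added. In females it was 0.44 (adjusted p = 0.0345) alone and 0.57 (adjusted p = 0.00788) with it. Over both sexes the rise of Rpsa was 0.48 (limma adjusted p = 0.00283) alone and 0.32 (adjusted p = 0.0162) with the copy. Adding the copies kept the calls of Rpl15 in females (0.53, adjusted p = 0.00593) and in mutants between the sexes (-0.49, adjusted p = 0.0269).

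**Figure D5:**
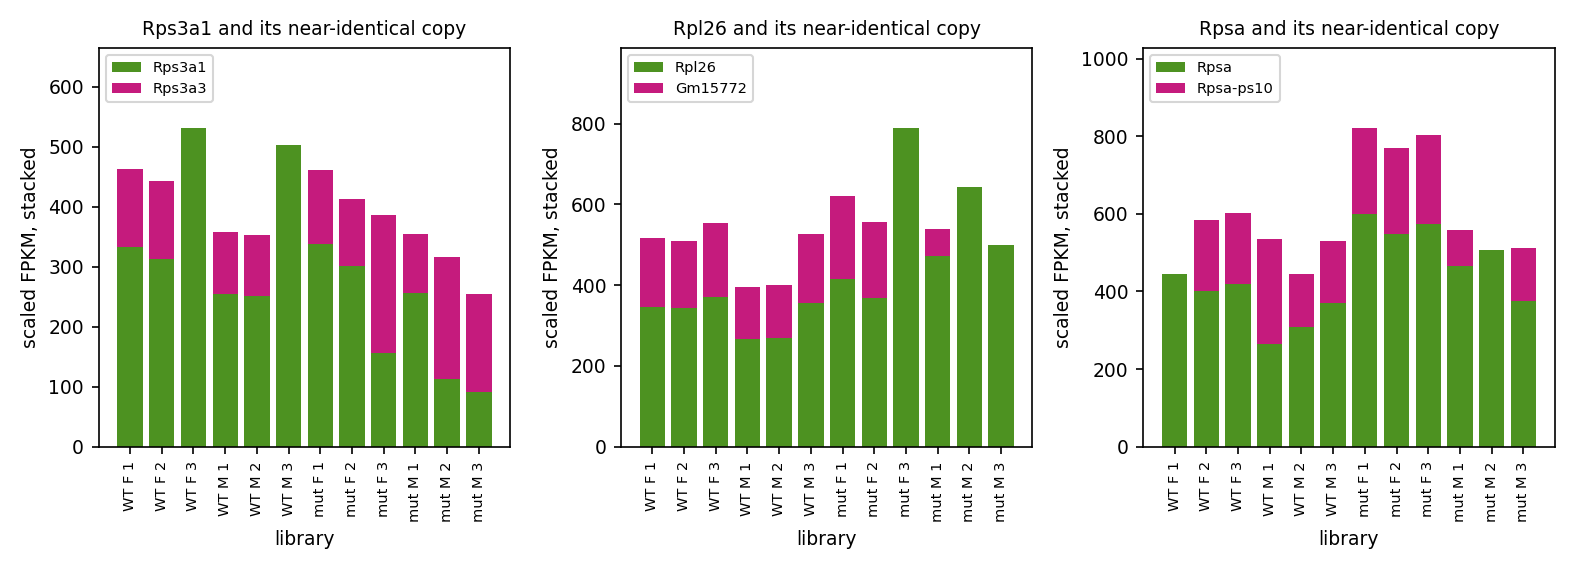
Stacked scaled FPKM of Rps3a1, Rpl26 and Rpsa (green) and of their near-identical copies Rps3a3, Gm15772 and Rpsa-ps10 (magenta) in each library. A copy drops to nearly 0 in some libraries of a group and not in others, and in wild type female 1 the copy of Rpsa does so while Rpsa stays near the other wild type females.

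Genes around the ribosome were read from lists. Fau, which encodes a further ribosomal protein fused to a ubiquitin-like protein, and Rack1, a scaffold on the small subunit, were called lower in mutant males than in mutant females, with differences of -0.44 (limma adjusted p = 0.0494) and -0.54 (adjusted p = 0.033). Fau rose in the mutant by 0.47 in males (adjusted p = 0.0206) and 0.67 in females (adjusted p = 0.00271). After the GC content and length correction Fau was not called in either sex, at 0.29 (adjusted p = 0.163) and 0.40 (adjusted p = 0.0672), nor between the sexes in mutants, at -0.30 (adjusted p = 0.148), while Rack1 remained called there. The mitochondrial ribosomal protein genes, 78 tested, had 2 called higher and 9 lower in mutant males, 8 and 10 in mutant females, and 0 by limma between the sexes in mutants, where their median was -0.12, with 1 higher and 10 lower at an unadjusted p under 0.05. The shares of all genes tested stand beside this and the following lists. They were 8.64% called higher and 11.6% lower in mutant males, and 12.1% and 15.9% in mutant females. Between the sexes in mutants, 3.98% were called higher and 3.52% lower in males. After the correction, 326 of 13735 genes were called higher and 302 lower in mutant males, and 378 and 317 in mutant females. Between the sexes in mutants, 375 were then higher and 404 lower in males. After the correction 2 mitochondrial ribosomal protein genes were higher and 3 lower in males, and 1 and 2 in females. Mrpl12 rose by 0.82 in males and 1.15 in females and remained called in both, and Mrpl1 had -0.52 and -0.74, or -0.18 and -0.24 after the correction, where it was not called (adjusted p = 0.382 and 0.245).

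Of 37 translation factors, 6 were called higher and 8 lower in mutant males, and 4 and 9 in mutant females. The initiation factor 3 subunits moved in both directions, Eif3b by 0.58 in males and 0.74 in females and Eif3e by -0.71 and -0.74, each called in both sexes. After the correction 4 translation factors were called higher in each sex and 0 lower by limma, with 5 lower at an unadjusted p under 0.05 in males and 1 in females. Eif3b remained called in both sexes, and Eif3e was not called, at -0.15 (adjusted p = 0.435) and 0.03 (adjusted p = 0.899). Between the sexes in mutants 6 were lower in males, led by Eef1d (-0.41, limma adjusted p = 0.0308) and Eif6 (-0.35, adjusted p = 0.0288), and 2 after the correction, without Eef1d (adjusted p = 0.0625) and Eif6 (adjusted p = 0.0763).

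Of 40 ribosome biogenesis genes, 4 were higher and 4 lower in mutant males and 10 and 5 in mutant females, among them Nob1 (0.51 in males, 0.58 in females), which completes the small subunit, and Rpf2 (-0.69 and -0.64), which acts in large subunit assembly. After the correction 3 were higher and 1, Rpf2, lower in males, and 4 were higher and 0 lower by limma in females, with 1 lower at an unadjusted p under 0.05. Nob1 remained called in both sexes, and Rpf2 was at -0.28 in females (adjusted p = 0.11).

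Of 12 regulators of ribosome production, 4 were called higher in mutant males and 7 in mutant females, and 0 lower by limma (1 and 0 at an unadjusted p under 0.05), with medians of 0.21 and 0.30. Trp53, which responds to faulty ribosome assembly, rose by 0.59 in males (adjusted p = 0.00244) and 0.65 in females (adjusted p = 0.000676). Myc, an activator of ribosomal genes, rose by 0.43 and 0.40, and Larp1, which binds the pyrimidine run of these messenger RNAs, by 0.36 and 0.35, each called in both sexes. After the correction 1 regulator, Trp53, was called higher in each sex. Myc was then at 0.28 and 0.22 (adjusted p = 0.156 and 0.251) and Larp1 at 0.12 and 0.20 (adjusted p = 0.435 and 0.209). Mycn, another Myc family gene, was lower in males than in females, with differences of -1.31 in wild types (adjusted p = 0.0013) and -1.62 in mutants (adjusted p = 0.000213).

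Markers of the cell types in the dissected tissue also moved, and their part in the results was not tested. As tested, 8.64% of all genes were called higher and 11.6% lower in mutant males, and 12.1% and 15.9% in mutant females. Between the sexes, 1.95% were called higher and 1.23% lower in males among wild types, and 3.98% and 3.52% among mutants. No marker of the 8 lists was listed at 0 in any library. Summed scaled FPKM of the 8 epithelial markers was 325 to 477 in wild type females, 346 to 428 in wild type males, 434 to 945 in mutant females and 329 to 592 in mutant males, with 2 of 8, Krt5 and Trp63, called higher in mutant females, and Krt5 also in mutant males (1.45, limma adjusted p = 0.00909). The 3 cycling cell markers summed to 138 to 148, 113 to 118, 99.7 to 103 and 105 to 119.6 in the same order, with 2 of 3 called lower in mutant females, 1 of 3 (Mki67) higher in mutant males, and 1 of 3, again Mki67, lower in wild type males than in wild type females. The 8 skeletal muscle markers summed to 560.1 to 757, 927 to 1270.2, 538 to 649 and 534 to 866, with 7 of 8 called lower in mutant males and 4 of 8 higher in wild type males than in wild type females. The 5 neuronal and glial markers summed to 141 to 177, 214 to 242, 20.6 to 187 and 135 to 177, with 1 of 5 called lower in mutant females. The 7 red cell markers summed to 5532 to 12648, 701 to 7230, 2753 to 12092 and 4213 to 11794, with 1 of 7 called higher in mutant males and 0 called by limma in mutant females. At an unadjusted p under 0.05, 6 of 7 were higher in mutant males and 1 of 7 lower in mutant females. At that level 7 of 7 were lower in wild type males than in wild type females, with 0 called by limma. The mutant difference was lower in females than in males for 6 of 7 at that level, again with 0 called by limma. The 6 smooth muscle and mesenchyme markers summed to 1397 to 1447, 1250 to 1489, 1248 to 2223 and 1292 to 1987, with 0 of 6 called by limma in either sex and 1 of 6 at an unadjusted p under 0.05, in females. The 3 endothelial markers summed to 70.1 to 79.3, 64.7 to 69.9, 38.2 to 73.3 and 70.1 to 82.2, and the 3 macrophage markers to 18.7 to 24.0, 15.01 to 17.4, 13.2 to 25.5 and 12.5 to 17.4, with 0 of 3 called by limma in each sex for both lists and 1 endothelial marker at an unadjusted p under 0.05, in females. Between the sexes in mutants, males were higher in 1 of 5 neuronal and glial markers and 1 of 3 cycling cell markers (Mki67) and lower in 1 of 8 skeletal muscle markers (Ckm). After the GC content and length correction no neuronal and glial marker was called by limma in either sex or between the sexes in mutants. The same held for cycling cell markers. At an unadjusted p under 0.05, 2 of 3 were then lower in mutant females and 1 of 3 higher in mutant males. Skeletal muscle kept 6 of 8 lower in mutant males, and the epithelial counts held.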

How the data were processed

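The deposited table gave FPKM, made by the authors for 56495 genes in 12 libraries, per the file headers, with 0 columns of other samples. Tools named in the submitters' processing notes are Cufflinks 2.2.1, STAR 2.7.10a, bedtools 2.30.0 and cutadapt 4.1, and builds mm10 and mm39. The annotation, strand setting and handling of reads with several matches are not given in the sources used here. Only 2.74% of genes had the same end as in GENCODE M21 on GRCm38, so the table's positions are given as mm39, with 1 added to its starts. FPKM keep no read counts, so depth is relative only, read from the steps of low values, and no interval or floor was computed.

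Scaling was by the median ratio to each gene's geometric mean, taken over the 11897 genes that reached 1 FPKM in each library (divisors 0.747 to 1.13). Genes reaching 1 FPKM in 3 or more libraries were fitted on log2(scaled FPKM + 0.5) with limma 3.58.1 in R 4.3.3, a mean for each of 4 groups and an intensity trend, for 6 comparisons. The script was tested on simulated data. GC content and length came from M21 transcripts and were corrected by splines per library, and copies were found with BLAST+ 2.17.0 (at least 97% identity, 200 aligned bases and 50% of the copy, and 1 FPKM in some library for an expressed copy).

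Named genes followed a rule: Rps16, the 5 highest and 5 lowest members, up to 5 called rises and 5 falls in each comparison or the 3 smallest p, paralogs, up to 4 called genes of each other list, and the genes most like Rps16. The X chromosome members, and the members listed by name as called in males or after the correction, were added after their values were seen. The members and lists were chosen with earlier results of these data known. Some genes that this rule names are not reported here.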

Additional observations from a re-analysis of the deposited data

How the results depend on the processing

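Settings tried were other scalings, pseudocounts (0.1, 1) and filters (none, 5 FPKM), no intensity trend, GC content and length correction, a replicate block, leaving out each library and, chosen after seeing the data, near-identical copies summed. Members called higher in males, 7, became 2 without a filter, as deposited, and with the correction, and 3 scaled to the FPKM sum. The 1 called lower became 2 with a pseudocount of 1, a filter at 5 FPKM or copies summed, 4 scaled to the sum, and 0 without a filter or with the correction. In females the 26 became 12 without a filter, 3 as deposited, 5 scaled to the sum and 6 with the correction, and the 1 lower became 4 scaled to the sum and 0 with the correction. Over both sexes the 26 became 15 without a filter, 4 as deposited and 8 scaled to the sum, and the 4 lower became 2 without a filter or with the correction and 11 scaled to the sum. Between the sexes in mutants the 37 lower became 3 without a filter, 0 as deposited, 2 scaled to the sum, 14 scaled over genes above 50 FPKM and 21 with the correction. Replicate numbers showed no pairing across all the libraries: correlations within 18 same-number pairs ran from -0.226 to 0.317, and 3 of 12 libraries correlated best with their own number. Such correlations cannot exclude a batch shared by some libraries. Wild type female 3 and wild type male 3 both had Rps3a3 near 0. With the replicate block, 2 were called lower in males and 11 in mutants between the sexes. With the replicate block and the correction, counts higher and lower were 2 and 0 in males, 3 and 0 in females, 12 and 1 over both sexes, and 7 lower between the sexes in mutants. Rps27l over both sexes turned to 0.21 with the correction, with and without the block. Leaving out 1 library gave 2 to 13 higher and 0 to 3 lower in males, 12 to 37 and 0 to 2 in females, 21 to 38 and 2 to 4 over both sexes, 0 to 5 lower between the sexes in wild types and 3 to 49 in mutants, and 0 to 0 for the others. A group then has 2 libraries and borrows the spread of the others. The causes of these changes were not tested. Without read counts, the limits set by depth could not be given.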
